A study of Mus musculus with 74 samples.

Results

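Growth cone proteins are described here through 10 genes: Gap43, Basp1 and Marcks, the stathmins Stmn1, Stmn2, Stmn3 and Stmn4, and the collapsin response mediator proteins (CRMPs) Crmp1, Dpysl2 and Dpysl3. They were taken by name from a list, by no rule on measured values, but with earlier results of these data known. All 10 were among the 53379 genes whose reads were counted, and all 10 passed the filters on low counts in whole dorsal root ganglia (DRG) and in sorted neurons. RNA was sequenced from L4 DRG, the ganglion that holds the cell bodies of hindlimb sensory neurons, after sciatic nerve injury (SNI, a crush of the nerve) or spinal cord injury (SCI, a cut across the dorsal column of the thoracic cord). Whole DRG came from wild type C57BL/6 females of 10 to 12 weeks, 4 uninjured and 4 taken 1 day (1d) after SCI, with 1 library per mouse. Sorted neurons came from Thy1YFP16 females of 10 to 20 weeks, which carry YFP under a Thy1 promoter, and the study used YFP as its label for large-diameter neurons that ascend the spinal cord. These neurons were taken from 6 naive mice and from 4 mice each at 1d after SNI, 3 days (3d) after SNI, 1d after SCI and 3d after SCI, as 3 wells of about 100 YFP-positive cells per mouse. The titles also give each naive mouse a day, 1d or 3d, and naive mice of both labels were pooled unless stated. All mice of the sorted set, naive mice included, carried the transgene, and their ganglia were dissociated with papain and collagenase before sorting.

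The growth cone is the motile tip of a growing axon, and its proteins are classical markers of neurons that are extending or regrowing axons. Gap43, Basp1 and Marcks are acylated proteins at the inner face of the plasma membrane that are phosphorylated by protein kinase C and bind calmodulin or phosphoinositides, and are linked to the actin cytoskeleton beneath the membrane. Stathmins bind tubulin and promote microtubule turnover, and Stmn2 (SCG10), a palmitoylated stathmin, is used as a label of regenerating sensory axons. CRMPs bind tubulin and carry semaphorin signals, with Dpysl2 (CRMP2) the best known for promoting axon formation.

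On the mouse build GRCm38, Gap43 was annotated at chr16:42248442-42340651 on the minus strand, Basp1 at chr15:25363277-25413764 on the minus strand and Marcks at chr10:37133375-37138920 on the minus strand. Stmn1 lay at chr4:134468320-134473843, Stmn2 at chr3:8509360-8561606 and Stmn4 at chr14:66344296-66361680, each on the plus strand, and Stmn3 at chr2:181306459-181314500 on the minus strand. Crmp1 lay at chr5:37241940-37292133 on the plus strand and Dpysl2 at chr14:66802864-66868688 on the minus strand. Each of the 10 is a protein-coding gene. Only Stmn1 overlapped another annotated gene, a microRNA gene of 66 bases on the same strand.

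Promoter sequences were matched in RefSeq, build GRCm38.p6, for Basp1, Stmn3 and both start sites of Crmp1, each from 250 bases before to 50 bases after the start. They are shown because these were the only members with an entry. Crmp1 was called higher after SNI in part of the fits described here, while Basp1 and Stmn3 were not. AP-1 (TGANTCA) and CRE (TGACGTCA) motifs were sought because injury induces Atf3 and Jun, whose factors bind them. Capitals mark GC boxes, GGGCGG read on either strand, where adjoining boxes may share bases.
Crmp1, first start, chr5:37241808-37242107, plus strand: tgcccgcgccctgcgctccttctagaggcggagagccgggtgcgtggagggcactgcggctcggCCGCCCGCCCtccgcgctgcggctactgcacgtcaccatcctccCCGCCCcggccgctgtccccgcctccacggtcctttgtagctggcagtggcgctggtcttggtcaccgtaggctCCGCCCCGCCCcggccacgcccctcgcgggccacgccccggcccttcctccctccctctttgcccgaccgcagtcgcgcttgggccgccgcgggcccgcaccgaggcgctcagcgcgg
Crmp1, second start, chr5:37245514-37245813, plus strand: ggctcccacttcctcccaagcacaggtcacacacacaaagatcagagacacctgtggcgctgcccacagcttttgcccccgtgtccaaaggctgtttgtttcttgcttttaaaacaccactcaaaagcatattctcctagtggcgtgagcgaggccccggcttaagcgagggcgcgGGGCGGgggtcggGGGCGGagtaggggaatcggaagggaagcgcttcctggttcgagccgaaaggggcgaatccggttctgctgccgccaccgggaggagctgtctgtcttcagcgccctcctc
Basp1, chr15:25413715-25414014, minus strand: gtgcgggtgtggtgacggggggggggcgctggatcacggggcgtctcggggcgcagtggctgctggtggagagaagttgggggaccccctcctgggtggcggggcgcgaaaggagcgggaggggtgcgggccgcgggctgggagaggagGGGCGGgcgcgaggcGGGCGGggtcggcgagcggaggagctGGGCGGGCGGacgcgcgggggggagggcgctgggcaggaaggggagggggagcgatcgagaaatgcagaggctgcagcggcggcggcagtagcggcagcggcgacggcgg
Stmn3, chr2:181314451-181314750, minus strand: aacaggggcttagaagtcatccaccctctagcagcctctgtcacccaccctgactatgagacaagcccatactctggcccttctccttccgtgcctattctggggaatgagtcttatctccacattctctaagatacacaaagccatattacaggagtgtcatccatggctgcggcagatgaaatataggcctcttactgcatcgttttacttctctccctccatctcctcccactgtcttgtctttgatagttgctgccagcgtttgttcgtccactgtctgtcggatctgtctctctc
The first Crmp1 promoter held 5 GC boxes and 77.0% G and C, the second held 2 boxes and 61.0%, and the Basp1 promoter held 4 boxes and 78.0%. The Stmn3 promoter held no GC box and 49.7% G and C, near the median of 52.7% over all promoters. A GC box occurred in 35.7% of the 32851 promoters of the same length. None of the 4 windows held the AP-1 letters, found in 7.81% of all promoters, or the CRE letters, found in 1.79%, which says only that these letters are not in these windows. Gap43, Stmn1, Stmn2, Stmn4, Dpysl2, Dpysl3 and Marcks had no entry.

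Between 21959030 and 44493319 reads fell on genes per whole DRG library, and between 30518187 and 83599972 per mouse over the wells of sorted neurons. In 20 of the 66 wells, from 14 mice, the summed level of 8 glial genes exceeded that of 8 neuronal genes. In these glia-rich wells the glial list took 3.15 to 14.2% of the reads, against 0.166 to 1.28% in the other 46, and the neuronal list a median of 0.0282%, against 2.94%. They made up 6 of 18 naive wells, 3 of 12 wells at each of SNI 1d and SCI 1d, and 4 of 12 at each of SNI 3d and SCI 3d, so results in sorted neurons are given with all wells and without these wells, which leaves 20 mice and no value for mouse 3 at SNI 3d and SCI 3d. The neuronal list overlapped between the 2 kinds of well, at 0.0068 to 1.62% in glia-rich wells and 1.07 to 3.60% in the others. Wells a and b of SNI 3d mouse 3 were left out at 1.62% and 1.33%. Well a of naive mouse 5 was kept at 1.15%, and well b of SNI 1d mouse 4 at 1.07%. The titles also divide the sorted samples into 2 sets, FACS and FACS2018, without saying what sets them apart. Naive mice 1 to 4 belong to the first set and mice 5 and 6 to the second, and each injured group has mice in both. A pair of naive libraries also stood apart. Naive mouse 5 rested on 1 well without the glia-rich ones and held 37375 summed CPM (counts scaled to the library total) of a nociceptor list with Tac1 at 10077 CPM and Ntrk3, a proprioceptor and mechanoreceptor gene, at 0.413 CPM, and naive mouse 6, also on 1 well, held Pvalb at 3995 CPM beside Tac1 at 4305 CPM. As a check of the labels, Atf3, the injury-induced transcription factor, lay at 518 to 1732 CPM in SNI mice, 22.9 to 246 CPM in naive mice and 24.2 to 342 CPM in SCI mice.

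The members spanned a wide range of levels. Per length, in RPKM, which is CPM divided by the exon length in kilobases, Stmn3 was the highest in uninjured whole DRG, with a median of 894 RPKM over 4 mice, followed by Dpysl2 at 332, Stmn2 at 169, Dpysl3 at 122, Gap43 at 112, Basp1 at 90.5, Marcks at 22.6, Crmp1 at 11.2, Stmn1 at 8.35 and Stmn4 at 4.40 RPKM. Neighbours in this order did not overlap among the 4 mice, except Gap43 and Basp1. In naive sorted neurons without the glia-rich wells, the median over 6 mice was 2893 RPKM for Dpysl2, 1593 for Stmn3, 593 for Stmn2, 335 for Gap43 and 65.0 for Dpysl3. Stmn1, Basp1, Crmp1, Stmn4 and Marcks followed, from 34.4 RPKM for Stmn1 down to 3.26 RPKM for Marcks, and every pair of neighbours overlapped among the naive mice. Stmn4 moved from ninth in the naive order to sixth at both SNI days, with medians of 7.46 RPKM in naive, 48.7 at SNI 1d and 47.0 at SNI 3d. At SCI 1d and SCI 3d Stmn4 also stood higher in the order, seventh and sixth, with medians of 20.7 and 21.7 RPKM. Marcks moved from last to seventh at the SNI days, with medians of 3.26, 16.6 and 24.4 RPKM, and was last at SCI 1d and SCI 3d, at 4.47 and 5.27 RPKM.

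**Figure D1:**
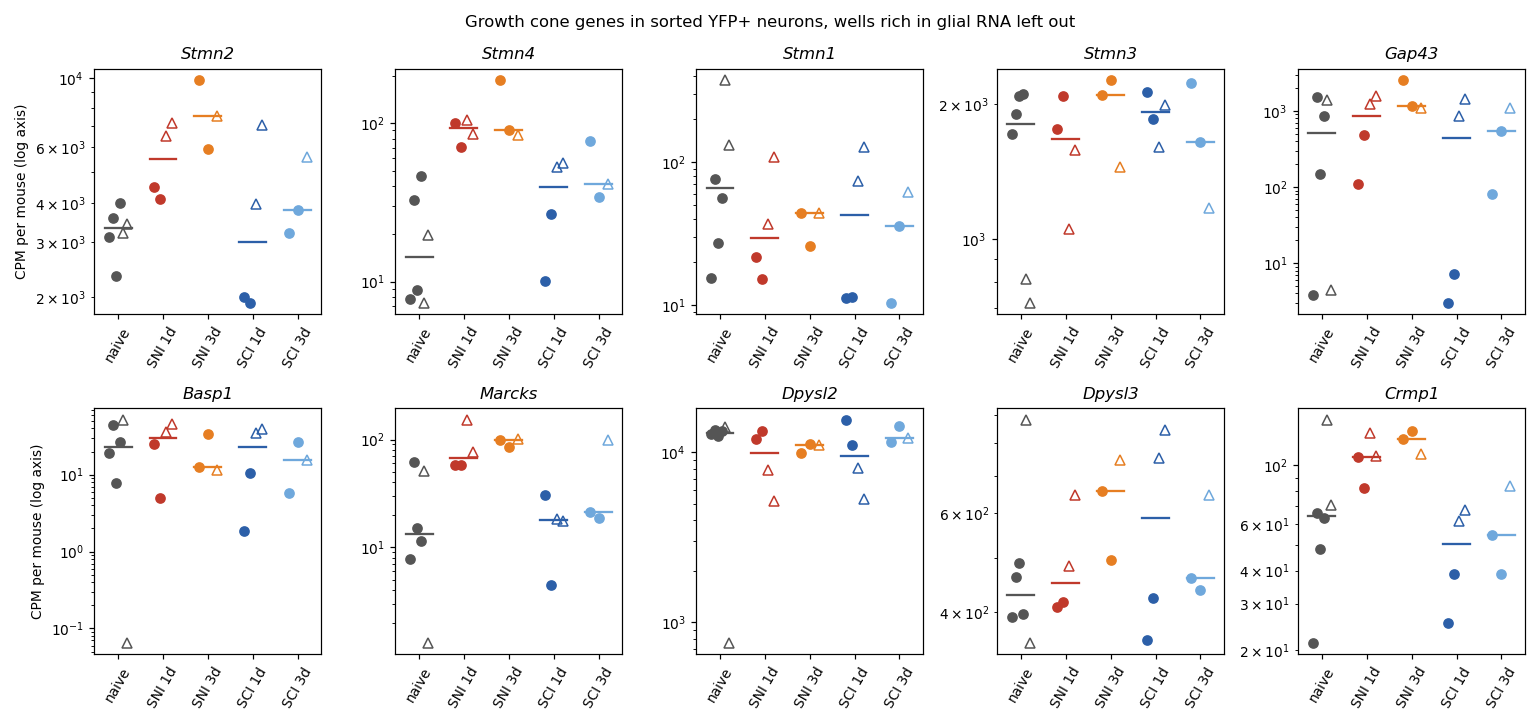
Level of each of the 10 genes in every mouse, in CPM on a log axis, for sorted neurons without the glia-rich wells, with 1 point per mouse, open triangles for the FACS2018 set and a bar at the group median. Stmn2 in SNI mice lay at 4105 to 9858 CPM, above all 6 naive mice, and Gap43 spread from 2.98 to 2574 CPM over the groups.

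Wells of a mouse differed in these genes by an amount that depended on the gene. Stmn2, Stmn3, Stmn4, Dpysl3 and Crmp1 were higher in the other wells than in the glia-rich wells of the same mouse in 12 of 12 mice that had both kinds, Basp1 and Dpysl2 in 11 and Gap43 in 9. Median levels in the other and the glia-rich wells were 3959 and 40.2 CPM for Stmn2, 1877 and 43.5 CPM for Stmn3, 475 and 3.67 CPM for Dpysl3, and 71.1 and 0.395 CPM for Crmp1. Stmn1 went the other way, at 31.7 CPM in the other wells and 162 CPM in the glia-rich wells, and was higher in the glia-rich wells of 11 of 12 mice. Marcks had a median of 33.3 CPM in the other wells and 134 CPM in the glia-rich wells, and was higher in the glia-rich wells of 8 of 12 mice. Dpysl2 stayed abundant in both, at 11933 and 4570 CPM. Stmn1 and Marcks summed over all wells of a mouse therefore include reads of wells with few neuronal transcripts, and in bulk samples fewer cells of a type and less RNA per cell cannot be told apart.

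**Figure D2:**
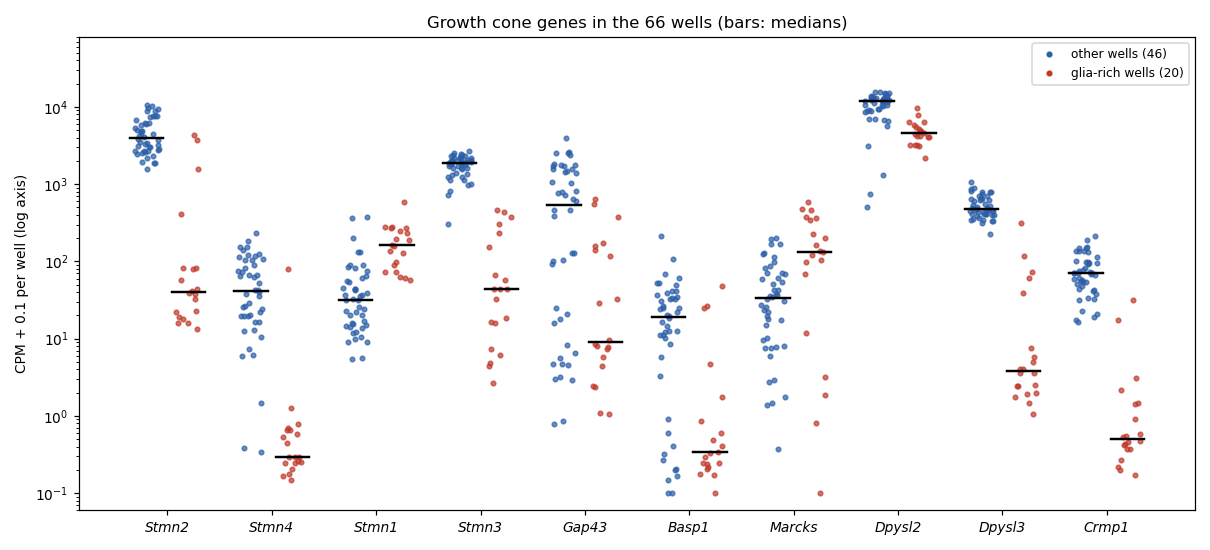
Level of each gene in each of the 66 wells, as CPM + 0.1 on a log axis with bars at the medians, split into the 46 other wells and the 20 glia-rich wells. Stmn2, Stmn3, Dpysl3 and Crmp1 sit far lower in the glia-rich wells, while Stmn1 sits higher there, with medians of 162 and 31.7 CPM.

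Among the 46 wells left after the glia-rich ones, the standard deviation between wells of a mouse on the log2(CPM + 1) scale was 2.78 for Gap43, 2.08 for Basp1, 1.41 for Stmn4, 1.32 for Marcks and 1.15 for Stmn1. It was 0.676 for Crmp1, 0.583 for Dpysl2, 0.560 for Stmn2, 0.457 for Stmn3 and 0.354 for Dpysl3. Gap43 thus reached from 0.690 to 3991 CPM over single wells of about 100 cells, whereas Stmn2 stayed between 1582 and 10531 CPM. Part of this spread moved with the kind of sensory neuron in the well. Over 44 wells of 18 mice, taken as deviations from the mean of their mouse, Gap43 fell where a large-fibre list (Nefh, Pvalb, Ntrk3, Spp1 and Ldhb) was higher, with a Pearson r of -0.63 and a Spearman rho of -0.61, and so did Stmn1 (r -0.65, rho -0.66) and Basp1 (r -0.59, rho -0.52). Stmn3 went with the large-fibre list, at r 0.62 and rho 0.71. With the nociceptor list (Scn10a, Trpv1, Calca, Tac1 and P2rx3), Stmn1 had r 0.62 and rho 0.68, Dpysl3 r 0.64 and rho 0.70 and Gap43 r 0.53 and rho 0.48. Stmn2, Stmn4, Crmp1 and Marcks had values between -0.33 and 0.27 for r with the nociceptor list, and between -0.31 and -0.12 with the large-fibre list. These values describe wells that share mice, sorts and library preparation. Per mouse, without the glia-rich wells, the nociceptor list had a median of 3477 summed CPM in naive mice, 518 at SNI 1d and 263 at SNI 3d. It was 2154 at SCI 1d and 1407 at SCI 3d, and every injured group overlapped the naive range of 39.1 to 37375. The highest mouse held 9094 at SNI 1d and 12356 at SCI 1d. Single wells reached 35091 at SNI 1d, 18193 at SCI 1d and 37375 in naive mice. The part of these differences in the comparisons with naive mice was not tested.

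The comparison of SNI with naive mice asks whether growth cone genes rise in ascending neurons when their peripheral branch is injured. With all wells, none of the 10 genes was called (edgeR's quasi-likelihood F-test with 2 factors of unwanted variation estimated by RUVr, adjusted p under 0.1 by Benjamini-Hochberg over all genes), against 0.685% of 23507 genes at SNI 1d and 0.706% at SNI 3d. At each day 3 of the 10 had an unadjusted p under 0.05, namely Stmn2, Stmn4 and Marcks, against 15% of all genes at SNI 1d and 12.7% at SNI 3d. DESeq2 called Stmn4 at SNI 1d, 1 of 10 against 6.55% of all genes, and Stmn2 and Stmn4 at SNI 3d, 2 of 10 against 9.57%. Without the glia-rich wells, Stmn4 and Marcks were called higher at SNI 1d, 2 of 10 against 7.17% of 22620 genes called higher (8.17% in either direction), and Stmn2, Stmn4, Crmp1 and Marcks were called higher at SNI 3d, 4 of 10 against 6.37% (7.57%). None was called lower with all mice in the fit. In these fits the median log2 fold change of all genes was 0.40 at SNI 1d and 0.39 at SNI 3d, and the log2 fold changes of the members in these fits are therefore also given as their excess over that median. Each adjusted p belongs to the log2 fold change itself, tested against no change, and not to the excess. Without the RUVr factors, or with the title set as a covariate in their place, none of the 10 was called at either day. The log2 fold changes of the called genes in these 2 fits were 2.08 and 2.05 for Stmn4 and 1.72 and 1.51 for Marcks at SNI 1d. At SNI 3d they were 2.43 and 2.44 for Stmn4, 1.08 and 1.12 for Stmn2, 0.58 and 0.81 for Crmp1 and 1.78 and 1.81 for Marcks.

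Stmn4 (RB3), a brain-enriched stathmin, had the lowest level of the 10 in uninjured whole DRG and one of the widest differences after SNI. Without the glia-rich wells it lay at 7.32 CPM in the lowest, 14.3 CPM in the median and 46.2 CPM in the highest of 6 naive mice, at 101, 71.2, 105 and 85.6 CPM in the 4 mice at SNI 1d, and at 188, 90.0 and 84.5 CPM in the 3 mice at SNI 3d. Every SNI mouse lay above every naive mouse at both days. The same held for Stmn2, so that 2 of 10 stood above all naive mice at SNI 1d, against 2.06% of all genes, and with Marcks 3 of 10 at SNI 3d, against 4.79%. At SNI 1d the log2 fold change was 2.10 ± 0.53 (SE), an excess of 1.70 over the median gene (adjusted p = 0.0389), and at SNI 3d it was 2.45 ± 0.57, an excess of 2.06 (adjusted p = 0.0336). With all wells it was 2.22 ± 0.79 (adjusted p = 0.209) and 2.70 ± 0.81 (adjusted p = 0.176), and only the SNI 1d mice, at 59.6 to 85.6 CPM, lay wholly above the naive mice, at 3.17 to 46.2 CPM. Stmn4 and Crmp1 were the 2 of 10 that stood above all naive mice there, against 1.61% of all genes. Leaving out SNI 1d mouse 3 raised the adjusted p at SNI 1d to 0.103, and leaving out SNI 3d mouse 1 raised that at SNI 3d to 0.174. The difference was present in both title sets, at 2.16 and 2.86 on the log2(CPM + 1) scale at SNI 1d and 2.77 and 2.70 at SNI 3d, where the last rests on 1 injured mouse. The naive side of the second set is mice 5 and 6, with 1 well each left. In these wells the neuronal list took 1.15% and 1.68% of the reads, and the glial list 0.947% and 1.21%.

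Stmn2 (SCG10) was the most abundant member to rise. It lay at 2345, 3319 and 4006 CPM in the lowest, median and highest naive mice, at 4490, 4105, 6534 and 7178 CPM at SNI 1d, and at 9858, 5951 and 7570 CPM at SNI 3d. Again no SNI mouse fell within the naive range, and the 3 mice at SNI 3d included the highest of all groups. At SNI 3d the log2 fold change was 1.16 ± 0.32, an excess of 0.77 (adjusted p = 0.0584), and at SNI 1d it was 0.72 ± 0.30, an excess of 0.32, and was not called (adjusted p = 0.159). Without naive mouse 5, the highest of the naive mice in the nociceptor list, the SNI 1d value was 0.69 and was called (adjusted p = 0.0210). The same held for the value of 0.73 without naive mouse 6 (adjusted p = 0.0115). The SNI 3d value was no longer called without SNI 3d mouse 1, at 0.93 (adjusted p = 0.225), or without SNI 3d mouse 4, at 1.18 (adjusted p = 0.133). Both title sets showed it, at 1.26 and 1.19 on the log2(CPM + 1) scale at SNI 3d and 0.43 and 1.05 at SNI 1d. The 1.19 rests on 1 SNI 3d mouse, and both values of the second set rest on naive mice 5 and 6. With all wells the values were 0.82 ± 0.37 at SNI 1d (adjusted p = 0.30) and 1.38 ± 0.37 at SNI 3d (adjusted p = 0.127).

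The other stathmins were not called. Stmn3 (SCLIP), the neuronal stathmin with the highest level, lay at 717 to 2108 CPM in naive mice, 1054 to 2089 at SNI 1d and 1448 to 2273 at SNI 3d, with overlapping groups and log2 fold changes of -0.03 ± 0.16 (adjusted p = 0.974) and 0.15 ± 0.18 (adjusted p = 0.681), or -0.43 and -0.24 relative to the median gene. Stmn1, the widely expressed founding member, lay at 15.5 to 377 CPM in naive mice, with mouse 5 the highest, and at 15.2 to 109 CPM and 25.9 to 44.4 CPM at the SNI days, with log2 fold changes of -0.68 ± 0.59 (adjusted p = 0.541) and -0.81 ± 0.66 (adjusted p = 0.499), or -1.08 and -1.20 relative to the median gene. The makeup of the family shifted in level accordingly. Of the summed RPKM of the 4 stathmins, Stmn2 took 30.7% ± 9.99 (SD, n = 6) in naive neurons, 40.3% ± 11.8 (n = 4) at SNI 1d and 43.8% ± 8.61 (n = 3) at SNI 3d, and these ranges overlapped. Stmn4 took 0.512% ± 0.329 in naive neurons, at most 0.919%, and 1.93% ± 0.507 and 1.93% ± 0.619 at the SNI days, at least 1.42%. Uninjured whole DRG held 15.3% ± 0.892 of Stmn2 and 83.5% ± 0.855 of Stmn3 (n = 4).

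**Figure D3:**
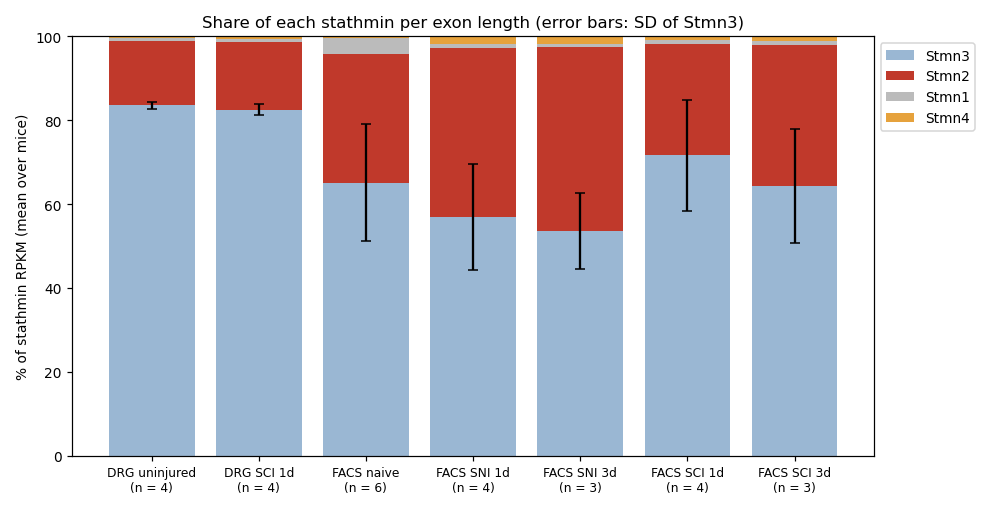
Share of each stathmin in the summed RPKM of Stmn1 to Stmn4, in percent, as the mean of each group's mice, with glia-rich wells left out of the sorted neurons and error bars for the SD of Stmn3. Stmn2 took 30.7% in naive neurons and 43.8% at SNI 3d, with overlapping ranges, and 15.3% in uninjured whole DRG. Stmn3 took 83.5% in uninjured whole DRG and 53.6% in neurons at SNI 3d, a contrast that mixes sorting and library preparation with the injury.

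Crmp1 (CRMP1) was the one CRMP to be called. It lay at 21.3, 64.6 and 149 CPM in the lowest, median and highest naive mice, at 107, 81.9, 133 and 108 CPM at SNI 1d and at 126, 135 and 111 CPM at SNI 3d. The naive range covered all SNI mice only through mouse 5, at 149 CPM, since the other 5 naive mice ended at 71.1 CPM. The log2 fold change at SNI 3d was 0.99 ± 0.30, an excess of 0.60 (adjusted p = 0.0756), and 0.81 ± 0.27 at SNI 1d, an excess of 0.41 (adjusted p = 0.102). Without naive mouse 5 it was 1.16 (adjusted p = 0.0360) at SNI 3d and 0.98 (adjusted p = 0.0486) at SNI 1d. The SNI 1d value was also called without naive mouse 2, naive mouse 6 or SNI 1d mouse 2 (adjusted p = 0.0898, 0.0726 and 0.0949). The sets differed for this gene, with 1.02 and 1.5 on the log2(CPM + 1) scale at the SNI days in the first set, and 0.22 and 0.11 in the second, whose 2 naive mice are mice 5 and 6. The 0.11 rests on 1 SNI 3d mouse. Leaving out SNI 3d mouse 1, 2 or 4, or naive mouse 3, raised the adjusted p at SNI 3d to between 0.111 and 0.196.

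Dpysl2 (CRMP2), the most abundant member in sorted neurons, lay at 12563 to 14041 CPM in 5 naive mice and at 755 CPM in mouse 6. At SNI 1d it lay at 12004, 13311, 7906 and 5181 CPM, and at SNI 3d at 9861, 11282 and 11031 CPM. Of these 7 SNI mice, 6 lay below the 5 high naive mice, and all 7 lay above mouse 6. The log2 fold changes were -0.05 ± 0.19 (adjusted p = 0.956) and 0.08 ± 0.21 (adjusted p = 0.894), or -0.45 and -0.31 relative to the median gene, and both moved with naive mouse 6. Without it Dpysl2 was called lower at SNI 1d, at -0.54 (adjusted p = 0.0532), and was -0.36 at SNI 3d (adjusted p = 0.227). Dpysl3 (CRMP4), the CRMP most tied to developing axons, lay at 352 to 882 CPM in naive mice, 408 to 648 at SNI 1d and 495 to 749 at SNI 3d, with log2 fold changes of 0.04 ± 0.19 (adjusted p = 0.966) and 0.36 ± 0.21 (adjusted p = 0.320), or -0.36 and -0.03 relative to the median gene. Of the summed RPKM of Dpysl2, Dpysl3 and Crmp1, Dpysl2 made up 93.0% to 97.0% in the means of the 5 neuron groups. In uninjured whole DRG Dpysl2 made up 71.9% ± 1.18 (SD, n = 4) and Dpysl3 25.8% ± 1.12.

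Marcks, a kinase C substrate that leaves the membrane on phosphorylation, had log2 fold changes as large as those of Stmn4. Without the glia-rich wells it lay at 1.29, 13.2 and 61.3 CPM in the lowest, median and highest naive mice, at 57.4, 57.6, 153 and 76.6 CPM at SNI 1d, and at 98.8, 85.7 and 101 CPM at SNI 3d. Naive mouse 2, at 61.3 CPM, and mouse 5, at 51.6 CPM, stood near the 2 lowest SNI 1d mice, while all SNI 3d mice lay above all naive mice. The log2 fold change was 2.37 ± 0.59 at SNI 1d, an excess of 1.97 (adjusted p = 0.0360), and 2.42 ± 0.62 at SNI 3d, an excess of 2.03 (adjusted p = 0.0476). Both calls depended on naive mouse 6, at 1.29 CPM: without it the values were 1.68 (adjusted p = 0.129) and 1.83 (adjusted p = 0.131). They were also lost without SNI 1d mouse 3 (adjusted p = 0.126) at SNI 1d, and without SNI 3d mouse 1 or 4 (adjusted p = 0.15 and 0.122) at SNI 3d. With all wells Marcks had 1.20 ± 0.51 (adjusted p = 0.277) and 1.41 ± 0.52 (adjusted p = 0.266), and there naive mouse 5 rose to 242 CPM with its glia-rich wells included.

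Gap43, the classical marker of axon regrowth, was not called and varied widely between mice. It lay at 3.82, 510 and 1522 CPM in the lowest, median and highest naive mice, at 109, 483, 1246 and 1592 CPM at SNI 1d and at 2574, 1146 and 1085 CPM at SNI 3d. The SNI 3d mice all lay above 4 of the 6 naive mice, and naive mice 2 and 5, at 1522 and 1380 CPM, lay above 2 of them. The 2 naive mice near 4 CPM were mice 1 and 6, and mice 2 and 5 held the most of the nociceptor list among naive mice, at 8150 and 37375 summed CPM. Of the 2 low mice, mouse 1 held 39.1 summed CPM of that list and mouse 6 held 4324, so that the list and Gap43 did not go together in mouse 6. The SNI 3d mice held only 118 to 348 summed CPM of the list, beside Gap43 at 1085 to 2574 CPM. The log2 fold changes were 1.56 ± 1.38 (adjusted p = 0.548) and 2.19 ± 1.41 (adjusted p = 0.379), or 1.16 and 1.80 over the median gene, and with all wells 0.55 ± 1.22 (adjusted p = 0.922) and 1.43 ± 1.26 (adjusted p = 0.667). The part of the neuron mixture in this spread was not tested. Basp1 (CAP-23), the relative of Gap43 in function, lay at 0.0646 to 52.0 CPM in naive mice, 5.04 to 45.4 at SNI 1d and 11.5 to 34.3 at SNI 3d, with log2 fold changes of 1.38 ± 0.79 (adjusted p = 0.313) and 0.55 ± 0.83 (adjusted p = 0.765), or 0.98 and 0.16 over the median gene, and a direction at SNI 1d that turned to -0.17 without naive mouse 6.

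**Figure D4:**
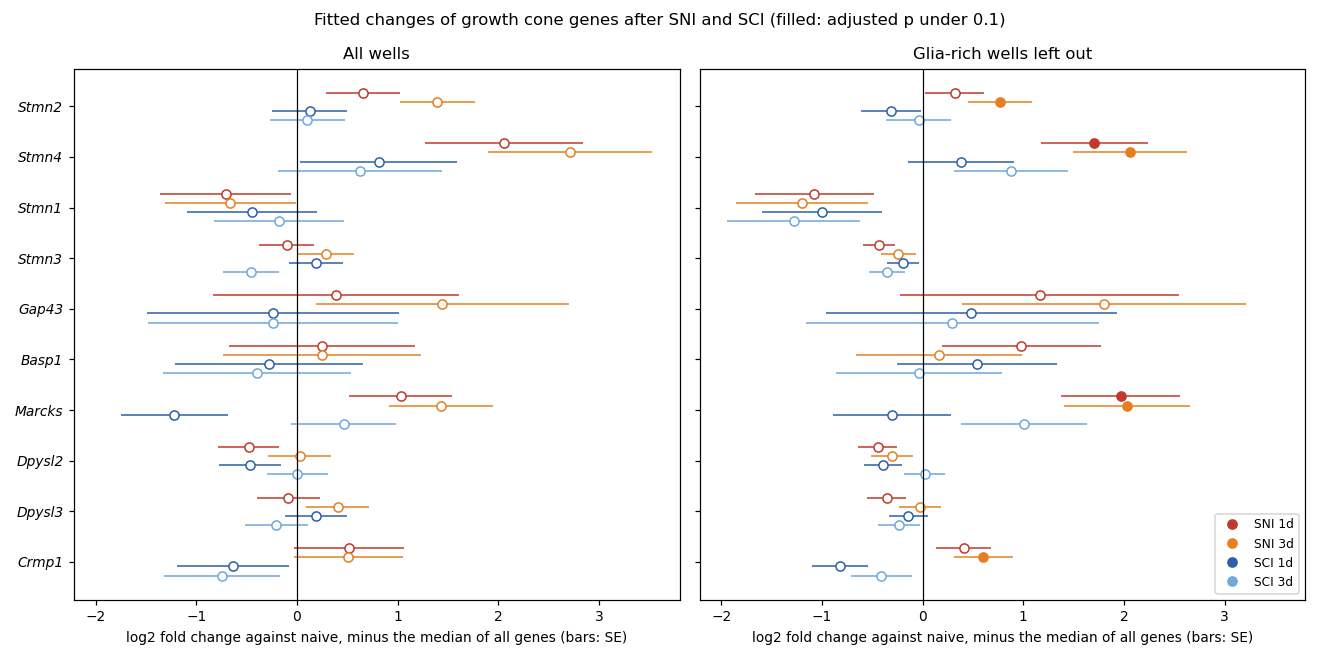
Log2 fold change against naive mice, minus the median of all genes in the same fit, for the 10 genes in sorted neurons with all wells and without the glia-rich wells, with the standard error as the bar and filled points for adjusted p under 0.1. Stmn4 lies at 1.70 to 2.71 and Marcks at 1.03 to 2.03 after SNI, and Gap43 has standard errors above 1.2.

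After SCI none of the 10 genes was called in sorted neurons, with or without the glia-rich wells, and none had an unadjusted p under 0.05 at either day. With all wells 0.017% of 23507 genes were called at SCI 1d and 0% at SCI 3d, and without the glia-rich wells 0.217% of 22620 and 0%. DESeq2 also called none of the 10, against 5.2% of all genes at SCI 1d and 5.11% at SCI 3d. An unadjusted p under 0.05 was found for 12.7% and 9.39% of all genes with all wells, and for 17.5% and 14.6% without the glia-rich wells. The lowest adjusted p without the glia-rich wells was 0.430 at SCI 1d and 0.344 at SCI 3d. Stmn4 lay at 10.0, 26.8, 52.6 and 56.5 CPM at SCI 1d and at 76.7, 34.3 and 41.6 CPM at SCI 3d, between the naive and SNI levels but overlapping the naive range, with log2 fold changes of 0.76 ± 0.53 (adjusted p = 0.482) and 1.19 ± 0.57 (adjusted p = 0.351), or 0.38 and 0.88 over the median gene. Stmn2 lay at 2009, 1916, 3975 and 7054 CPM at SCI 1d and at 3194, 3786 and 5609 CPM at SCI 3d. At SCI 1d 2 mice thus lay below all naive mice and 1 well above them, and the log2 fold change of 0.07 ± 0.30 (adjusted p = 0.985), or -0.31 relative to the median gene, turned to -0.44 without SCI 1d mouse 4. Crmp1 lay at 25.3, 38.8, 61.7 and 68.1 CPM at SCI 1d, within the naive range, with -0.44 ± 0.28 (adjusted p = 0.430), or -0.82 relative to the median gene.

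Gap43 also varied widely among SCI mice. It lay at 2.98, 7.13, 870 and 1451 CPM at SCI 1d and at 81.1, 550 and 1084 CPM at SCI 3d. At SCI 1d the 2 lowest mice held 268 and 17.1 summed CPM of the nociceptor list, and the 2 highest held 4040 and 12356. Its log2 fold changes were 0.87 ± 1.45 (adjusted p = 0.832) and 0.61 ± 1.45 (adjusted p = 0.950), or 0.49 and 0.30 over the median gene, and within the 2 title sets the SCI 1d difference was -4.95 and 3.70 on the log2(CPM + 1) scale. Marcks lay at 30.4, 4.43, 18.5 and 17.7 CPM at SCI 1d, with 0.08 ± 0.59 (adjusted p = 1), and at 21.4, 18.8 and 98.6 CPM at SCI 3d, with 1.32 ± 0.62 (adjusted p = 0.344), or -0.31 and 1.01 relative to the median gene. The single high SCI 3d mouse was the one of the second set. Stmn1, Stmn3, Basp1, Dpysl2 and Dpysl3 had log2 fold changes between -0.97 and 0.92 at the SCI days, or -1.28 to 0.54 relative to the median gene, all with groups that overlapped the naive mice.

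The direct comparison of SNI with SCI asks whether the genes differ between the injuries rather than each from naive mice. With all wells none of the 10 was called at 1d or 3d, where 0% of genes were called, with 1 and 3 of the 10 at an unadjusted p under 0.05, against 10.2% and 8.47% of all genes. DESeq2 called Marcks at 1d, 1 of 10 against 4.72% of all genes, and none of the 10 at 3d, against 4.21%. At 1d with all wells, Stmn4, Crmp1 and Marcks lay higher in every SNI mouse than in every SCI mouse, 3 of 10 against 2.9% of all genes. Without the glia-rich wells Crmp1 was called higher in SNI than in SCI mice at 1d, 1 of 10 against 0.712% of 22620 genes called higher, with a log2 fold change of 1.25 ± 0.31 (adjusted p = 0.0929). All 4 SNI mice, at 81.9 to 133 CPM, lay above all 4 SCI mice, at 25.3 to 68.1 CPM. The fold change stayed near that value but the call was lost under a scaling by library total (1.19, adjusted p = 0.121), without the RUVr factors (1.20, adjusted p = 0.50), with the title set as a covariate (1.29, adjusted p = 0.373) and with any of the 8 mice left out except SCI 1d mouse 4, where adjusted p was 0.10 to 0.273, against 0.0700 without that mouse. Without SCI 1d mouse 4 Stmn2 was called higher in SNI mice as well, at 1.16 (adjusted p = 0.0926). Stmn4 and Marcks also did not overlap at 1d, at log2 fold changes of 1.34 ± 0.60 (adjusted p = 0.350) and 2.29 ± 0.67 (adjusted p = 0.17), so that 3 of 10 stood apart upward against 3.27% of all genes.

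At 3d, with 3 mice in each group, Gap43, Stmn2, Stmn4 and Crmp1 lay higher in every SNI mouse than in every SCI mouse, 4 of 10 against 7.36% of all genes, and Dpysl2 lay lower, against 4.99%. Gap43 reached 1085 CPM in the lowest SNI mouse and 1084 CPM in the highest SCI mouse, so that its groups barely parted. The log2 fold changes were 0.89 ± 0.38 for Stmn2 and 1.09 ± 0.35 for Crmp1 (adjusted p = 0.669 for each), and 1.26 ± 0.69 for Stmn4 (adjusted p = 0.671). No gene of any kind was called in that comparison without the glia-rich wells. Between the days, none of the 10 was called, and with all wells 0.00425% of genes were called for SNI and 0% for SCI. Without the glia-rich wells, where 0% of genes were called, SNI 3d against SNI 1d gave log2 fold changes between -0.83 for Basp1 and 0.63 for Gap43. Their adjusted p was at least 0.716. In the same wells SCI 3d against SCI 1d gave values between -0.64 and 1.24, with adjusted p of at least 0.828. With all wells the lowest adjusted p of the 10 was 0.687 between the SNI days and 0.453 between the SCI days. Every group overlapped its counterpart at the other day in all 10 genes. With all wells and an unadjusted p under 0.05, SNI 3d against SNI 1d held 0 of the 10, against 9.95% of all genes, and SCI 3d against SCI 1d held 2, against 10.7%. DESeq2 called none of the 10 in either, against 4.04% and 4.62% of all genes.

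In whole DRG the comparison of SCI 1d with uninjured mice was far more precise, with standard errors of 0.07 to 0.15, and none of the 10 genes was called by edgeR, against 2.32% of 17616 genes. Atf3 and Jun rose in the same libraries, by 2.39 ± 0.27 (adjusted p = 0.00431) and 0.68 ± 0.09 (adjusted p = 0.00893) on the log2 scale. Of the 10 members 3 had an unadjusted p under 0.05, against 14.6% of all genes. DESeq2 called Stmn4 (adjusted p = 0.0164) and Marcks (adjusted p = 0.0608), 2 of 10 against 5.27% of all genes. Stmn4 lay at 8.93, 8.29, 7.67 and 8.56 CPM in uninjured mice and at 14.3, 12.0, 9.31 and 15.0 CPM after SCI. All SCI mice lay above all uninjured mice, 1 of 10 against 5.48% of all genes, and the log2 fold change was 0.58 ± 0.15 (adjusted p = 0.112). Marcks lay at 112, 93.0, 89.7 and 79.7 CPM in uninjured mice and at 64.0, 67.1, 86.4 and 66.6 CPM after SCI, where SCI mouse 3 overlapped the uninjured range, and its log2 fold change was -0.41 ± 0.12 (adjusted p = 0.16). Without SCI mouse 3 edgeR called both genes, Stmn4 at 0.71 (adjusted p = 0.0242) and Marcks at -0.51 (adjusted p = 0.0560).

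Gap43 was nearly constant in uninjured whole DRG, at 169, 169, 174 and 172 CPM, and lay at 162, 154, 134 and 158 CPM after SCI. All 4 SCI mice lay below all uninjured mice, 1 of 10 against 5.15% of all genes, with a log2 fold change of -0.19 ± 0.07 (adjusted p = 0.250). The remaining members had small differences with overlapping groups. Stmn2 lay at 788 to 1056 CPM uninjured and 919 to 1129 CPM after SCI (log2 fold change 0.14 ± 0.09, adjusted p = 0.540), and Dpysl2 at 1453 to 1812 and 1355 to 1519 CPM (-0.14 ± 0.08, adjusted p = 0.49). Basp1 lay at 254 CPM in uninjured mouse 1 and at 170.5 to 191 CPM in the other 7 mice, with a log2 fold change of -0.14 ± 0.12 (adjusted p = 0.651). Stmn1, Stmn3, Dpysl3 and Crmp1 had log2 fold changes between -0.08 and 0.04 (adjusted p = 0.603 to 0.887). The SCI libraries also held more red blood cell RNA, at 61.2, 90.0, 70.6 and 20.6 summed CPM against 13.3 to 20.8, so that SCI mouse 4 lay in the uninjured range, and with that level as a covariate 9 genes in all were called, none of them among the 10. The part of blood in these differences was not tested further.

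**Figure D5:**
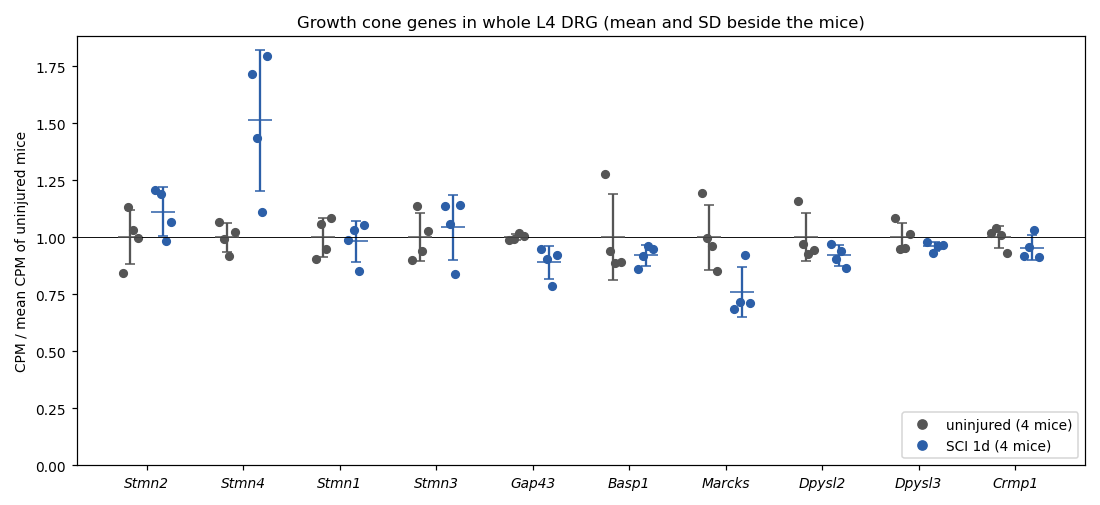
Level of each gene in the 4 uninjured and the 4 SCI 1d whole DRG libraries, as CPM divided by the mean CPM of the uninjured mice, with 1 point per mouse and the group mean and SD beside the points. Stmn4 stands higher after SCI in every mouse, which in CPM is 9.31 to 15.0 against 7.67 to 8.93, and Gap43 lower, at 134 to 162 against 169 to 174 CPM.

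Genes that work with these proteins were read in the same fits from 6 lists of 86 genes, and are given as counts beside the share of all genes called, with each difference in sorted neurons given over the median gene of its fit. Each adjusted p is from the test of the gene's own log2 fold change against no change, and not of this excess. Without the glia-rich wells 8.17% of all genes were called at SNI 1d, 7.57% at SNI 3d and 0.889% between SNI 1d and SCI 1d. A list of 17 genes held palmitoylation enzymes, which add or remove the lipid that holds Gap43 and Stmn2 at membranes. It also held Fasn, Nmt1 and Nmt2, which do neither. Of these 17 genes, 6 were called higher at SNI 1d in that fit, against 7.17% of all genes called higher, 4 at SNI 3d, against 6.37%, and none lower. The list medians were 0.33 and 0.65, beside medians of all genes of 0.40 and 0.39. Abhd17c and Abhd17b, depalmitoylases, rose at SNI 1d by 1.61 (adjusted p = 0.0102) and 1.00 (adjusted p = 0.0212) on the log2 scale, and Zdhhc2, a palmitoyl transferase, by 0.63 (adjusted p = 0.0321). At SNI 3d Zdhhc3, a transferase known to act on Gap43, rose by 1.17 (adjusted p = 0.0269), Abhd17c by 1.05 (adjusted p = 0.0567) and Abhd17b by 0.78 (adjusted p = 0.0658), and Abhd17b was also higher in SNI than in SCI mice at 1d, by 1.41 (adjusted p = 0.0982). Of 12 calmodulin partners 2 were called at SNI 1d. Pcp4, a calmodulin-binding peptide, rose by 0.98 (adjusted p = 0.0350), and Ppp3r1, the calcineurin B subunit, fell by 1.41 (adjusted p = 0.0426). At SNI 3d Calm2, a calmodulin gene, fell by 0.97 relative to the median gene, where the tested log2 fold change was -0.58 ± 0.16 (adjusted p = 0.0638).

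Of 17 kinases and phosphatases that act on the members, 2 were called at SNI 1d, near the 8.17% of all genes, and none at SNI 3d. Rock2 rose by 0.41 (adjusted p = 0.0678) and Cdk5r1, the activator of the CRMP kinase Cdk5, fell by 1.48 (adjusted p = 0.0563). The tested log2 fold change of Rock2 was 0.81 ± 0.24 (SE). Of 26 actin and microtubule genes of the growth cone, 2 were called at each SNI day, a share near those of all genes. Enah rose by 0.34 (adjusted p = 0.0222) and Pfn2 fell by 0.79 (adjusted p = 0.0705) at SNI 1d, and Dbn1 and Pfn1 rose by 1.08 (adjusted p = 0.0633) and 0.48 (adjusted p = 0.0834) at SNI 3d. The tested values at SNI 1d were 0.74 ± 0.16 for Enah and -0.39 ± 0.12 for Pfn2. In whole DRG only Dcx, doublecortin, was called among these 26, against 2.32% of all genes, and fell by 0.50 (adjusted p = 0.0358). Of 8 adhesion molecules, Ncam1, Alcam and L1cam rose at SNI 3d, by 2.21 (adjusted p = 0.0652), 1.27 (adjusted p = 0.0848) and 0.30 (adjusted p = 0.0979). For L1cam the tested value was 0.69 ± 0.23. Of 6 relatives and other axon growth proteins, Sprr1a was called at SNI 1d (adjusted p = 0.0394) and SNI 3d (adjusted p = 0.0230), with 16.3 to 206 CPM and 220 to 712 CPM against 0 to 14.1 CPM in naive mice, and against SCI at 1d (adjusted p = 0.0687). With all wells, where 0.706% of all genes were called, Ncam1 (2.85, adjusted p = 0.0811) and Sprr1a (adjusted p = 0.0775) were called at SNI 3d, and Nrn1 fell by 3.37 (adjusted p = 0.0784). In the SCI comparisons with naive mice, no gene of the 6 lists was called with either set of wells. Almost no gene of any kind was called there. The shares at SCI 1d and SCI 3d were 0.017% and 0% of all genes with all wells, and 0.217% and 0% without the glia-rich wells.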

How the data were processed

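Reads per gene were counted in 8 whole DRG libraries and in 66 wells of sorted neurons from 22 mice. As deposited by the authors, the count values are whole reads per gene from HTSeq 0.6.1 after trimming with cutadapt and alignment with STAR 2.5.3a to mm10, without normalization, and lines that name no gene (33.1% to 66.9% of a library) were left out. The authors deposited 7 tables of their own comparisons, with log2 fold changes, p-values and 123 columns of normalized values per sample, some of which match no sample analysed here. None of them was used. The study removed outlier samples that the labels do not name, so all mice were kept.

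Wells were summed per mouse. Tests covered genes averaging 10 or more reads in whole DRG (17616) or reaching 20 reads in any mouse of the sorted set (23507, or 22620 without the glia-rich wells), in R 4.3.3 with edgeR 4.0.16 (TMM, quasi-likelihood F-test, Benjamini-Hochberg, adjusted p under 0.1), in sorted neurons with 2 RUVr factors from centred residuals over all groups, and the scripts were tested on simulated data. The biological coefficient of variation was 0.133 in whole DRG, 1.20 with all wells and 1.08 without the glia-rich wells. The labels separate the mice by group, by day and, in sorted neurons, by title set (FACS or FACS2018). In whole DRG p-values measure the spread between mice. In sorted neurons they measure the spread between mice that is left after the 2 RUVr factors, which were estimated from the same mice. The members and the lists were chosen with earlier results of these data known. The 10 members were named in every comparison, and of each other list the called genes with the smallest adjusted p, up to 3 in each direction. Some items that this rule names are not reported here. Coordinates follow GRCm38. Same-numbered samples did not deviate together throughout (correlations of -0.23 to 0.33 over 4 pairs in whole DRG and of -0.04 to 0.42 over 48 pairs in sorted neurons), so the numbers were not taken as pairs. Alternatives were DESeq2 1.42.0, its size factors, library totals, other filters, RUVr without centring, no RUVr, the title set, a replicate block, red blood cell level, naive mice of the same day, no glia-rich wells, and leaving out each mouse.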

Additional observations from a re-analysis of the deposited data

Results flagged for a closer look

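Of 100 combinations of a gene and a group, 11 held a mouse far from the others of its group, where chance flags about 1 in 20 groups. In whole DRG these were Basp1 in uninjured mouse 1 (254 CPM, the others 176 to 186) and Marcks in SCI 1d mouse 3 (86.4 CPM, the others 64.0 to 67.1). With all wells, Stmn1 was high in SNI 1d mouse 4 (109 CPM, the others 40.6 to 51.4), and Dpysl3 was high in the same mouse (648 CPM, the others 341 to 349) and low in SCI 3d mouse 3 (50.8 CPM, the others 438 to 472). Marcks was high with all wells in naive mouse 5 (242 CPM, the others 11.4 to 62.4), SCI 3d mouse 3 (399 CPM, the others 18.8 to 72.4) and SNI 3d mouse 3 (219 CPM, the others 85.7 to 102). The latter 2 mice had only glia-rich wells, and naive mouse 5 had 2 of 3. Without the glia-rich wells, naive mouse 5 was high in Stmn1 (377 CPM, the others 15.5 to 132) and Dpysl3 (882 CPM, the others 352 to 490), and naive mouse 6 was low in Dpysl2 (755 CPM, the others 12563 to 14041). Crmp1 was called between the injuries themselves, higher at SNI 1d than at SCI 1d by 1.25 on the log2 scale without the glia-rich wells (edgeR, adjusted p = 0.0929), in 4 of 4 SNI mice against 4 SCI mice. It was not called with all wells. Without the glia-rich wells the call was lost without RUVr, with the title set, with library totals and in most fits that leave out a mouse.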

How the results depend on the processing

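The number of members called moved with the tool and the wells. In whole DRG it went from 0 to 2 with DESeq2, 2 without a filter, 1 with library totals (chosen after seeing the data) and 0 to 2 with each mouse left out, the 2 without SCI 1d mouse 3. In sorted neurons with all wells it went from 0 to 1, 2 and 1 with DESeq2 and to 2, 4 and 1 without the glia-rich wells, for SNI 1d, SNI 3d and SNI 1d against SCI 1d. From the latter counts, it went to 0, 0 and 0 without RUVr or with the title set (FACS or FACS2018) as a covariate, to 0 with library totals for SNI 1d against SCI 1d, and to 0 to 4, 0 to 4 and 0 to 2 with each mouse left out (these were added after seeing the data). The 0 arose without SNI 1d mouse 3 and without SNI 3d mouse 1, and without SNI 3d mouse 4 1 member was called. With a replicate block, which rests on shared numbers only, 0 members were called in any comparison, and the calls over all genes fell from 408 to 127 in whole DRG, from 161 to 1 at SNI 1d and from 166 to 46 at SNI 3d.

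Over all genes the counts for whole DRG, SNI 1d, SNI 3d and SCI 1d were 408, 161, 166 and 4, and with DESeq2 929, 1539, 2250 and 1223. They were 0, 0 and 1 in the 3 sorted comparisons without RUVr or with the title set, 1, 2 and 1 without centring, 1848, 1712 and 49 without the glia-rich wells, and from there 39, 14 and 0 without RUVr and 51, 57 and 0 with the set. With naive mice of the same day SNI 1d had 55, without a filter SNI 3d had 57, library totals gave 107 at SNI 3d, and red blood cell level as a covariate left 9 in whole DRG.

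No called value changed direction in these fits. Log2 fold changes that were not called changed sign in 100 fits other than those that leave out a mouse. The sign is read without a tolerance, and the cause was not tested. From the fits with all wells, or in whole DRG, the values that changed sign are given with their comparison (with naive mice unless 2 injured groups are named). With red blood cell level they were Stmn1 0.093 (whole DRG). With the title set they were Gap43 -0.27 and Basp1 -0.0083 (SNI 1d), Basp1 -0.15 (SNI 3d), Stmn3 0.0066 (SCI 3d), Stmn1 0.017 (SNI 1d against SCI 1d), Stmn1 0.30 (SNI 3d against SCI 3d), Stmn1 0.27, Stmn3 -0.0050 and Crmp1 0.060 (SNI 3d against SNI 1d) and Gap43 0.26 and Stmn1 -0.012 (SCI 3d against SCI 1d). With the replicate block they were Gap43 -0.076 and Dpysl3 -0.14 (SNI 1d), Stmn2 -0.13 (SCI 1d), Stmn2 -0.18 (SCI 3d), Stmn1 0.28 and Dpysl2 0.0032 (SNI 3d against SCI 3d), Stmn1 0.30 (SNI 3d against SNI 1d) and Gap43 0.70 and Stmn1 -0.10 (SCI 3d against SCI 1d). With naive mice of the same day they were Gap43 -0.026, Basp1 -0.20 and Dpysl3 -0.22 (SNI 1d) and Gap43 0.47, Stmn4 -0.87 and Basp1 0.50 (SCI 3d). Without RUVr they were Stmn3 -0.0024 (SNI 1d), Basp1 -0.019 and Dpysl2 -0.082 (SNI 3d), Dpysl2 -0.015 (SCI 3d), Marcks -0.21 (SNI 3d against SCI 3d), Stmn1 0.56 and Crmp1 0.022 (SNI 3d against SNI 1d) and Stmn4 0.19 (SCI 3d against SCI 1d). With glia-rich wells left out they were Stmn3 -0.033 (SNI 1d), Gap43 0.87, Basp1 0.92 and Marcks 0.075 (SCI 1d), Gap43 0.61, Basp1 0.28 and Dpysl3 0.076 (SCI 3d), Stmn1 0.16 (SNI 3d against SCI 3d), Crmp1 0.18 (SNI 3d against SNI 1d) and Stmn1 -0.35, Stmn2 0.21, Stmn4 0.43 and Crmp1 0.34 (SCI 3d against SCI 1d). Without centring they were Basp1 -0.21 and Dpysl2 -0.15 (SNI 3d), Stmn1 0.25 and Crmp1 0.079 (SCI 1d), Dpysl2 -0.12 (SCI 3d), Stmn4 -0.027 and Dpysl3 -0.026 (SNI 3d against SNI 1d) and Stmn1 -0.31 (SCI 3d against SCI 1d). With DESeq2 they were Dpysl2 -0.041 (SNI 3d) and Dpysl2 -0.039 (SCI 3d). With DESeq2 size factors they were Dpysl2 -0.023 (SNI 3d) and Dpysl2 -0.022 (SCI 3d). Without a filter they were Dpysl2 -0.0050 (SNI 3d). With library totals they were Gap43 0.035 and Basp1 0.033 (SCI 1d), Dpysl2 0.049 (SNI 3d against SCI 3d) and Stmn1 -0.076 (SCI 3d against SCI 1d). With at least 20 reads in 4 mice they were Dpysl2 0.0025 (SNI 3d against SCI 3d). From the fits without the glia-rich wells, the changes of sign were as follows. With the title set they were Gap43 -0.63, Stmn3 0.15, Basp1 -0.23 and Dpysl3 -0.22 (SNI 1d), Basp1 -0.40 and Dpysl2 -0.13 (SNI 3d), Gap43 -1.82, Stmn2 -0.19, Basp1 -0.78, Dpysl3 -0.053 and Marcks -0.69 (SCI 1d), Gap43 -0.78, Stmn3 0.039, Basp1 -0.74 and Dpysl3 -0.089 (SCI 3d), Stmn1 0.090 (SNI 1d against SCI 1d), Stmn1 0.60 (SNI 3d against SNI 1d) and Gap43 1.05, Stmn1 0.27 and Basp1 0.044 (SCI 3d against SCI 1d). Without RUVr they were Stmn3 0.013 and Dpysl3 -0.14 (SNI 1d), Basp1 -0.55 and Dpysl2 -0.18 (SNI 3d), Gap43 -0.29, Basp1 -0.34 and Marcks -0.61 (SCI 1d) and Gap43 -0.33, Stmn3 0.017, Basp1 -0.80 and Dpysl3 -0.12 (SCI 3d). With DESeq2 size factors they were Dpysl2 0.0061 (SCI 1d). With library totals they were Stmn3 0.016 and Crmp1 0.047 (SCI 3d).

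Leaving out a mouse changed the sign of a value in 161 fits, over 71 values. In whole DRG and with all wells their ranges over the fits were Stmn1 -0.089 to 0.024, Stmn3 -0.0056 to 0.14 and Basp1 -0.20 to 0.017 (whole DRG), Gap43 -0.018 to 1.24, Stmn3 -0.15 to 0.24 and Dpysl3 -0.16 to 0.27 (SNI 1d), Stmn3 -0.10 to 0.41, Basp1 -0.28 to 0.66 and Dpysl2 -0.32 to 0.14 (SNI 3d), Gap43 -1.20 to 0.60, Stmn1 -0.73 to 0.066, Stmn2 -0.37 to 0.53 and Basp1 -0.60 to 0.73 (SCI 1d), Gap43 -0.85 to 0.46, Stmn1 -1.61 to 0.35, Stmn2 -0.25 to 0.46, Stmn3 -0.90 to 0.24, Stmn4 -0.040 to 1.44, Basp1 -0.91 to 0.43, Dpysl2 -0.24 to 0.15, Dpysl3 -0.55 to 0.21 and Marcks -0.46 to 1.00 (SCI 3d), Stmn1 -0.66 to 0.076, Dpysl2 -0.22 to 0.27 and Dpysl3 -0.52 to 0.045 (SNI 1d against SCI 1d), Stmn1 -1.12 to 0.79, Stmn3 -0.11 to 1.17 and Dpysl2 -0.19 to 0.11 (SNI 3d against SCI 3d), Stmn1 -0.63 to 0.26, Basp1 -0.58 to 0.18, Crmp1 -0.38 to 0.27 and Marcks -0.13 to 0.76 (SNI 3d against SNI 1d) and Gap43 -0.87 to 1.03, Stmn1 -1.22 to 0.63, Stmn2 -0.52 to 0.44, Stmn4 -1.02 to 0.47, Basp1 -0.76 to 0.33 and Crmp1 -0.88 to 0.35 (SCI 3d against SCI 1d). With glia-rich wells left out they were Stmn3 -0.16 to 0.10, Basp1 -0.17 to 1.74, Dpysl2 -0.54 to 0.17 and Dpysl3 -0.12 to 0.14 (SNI 1d), Basp1 -0.25 to 1.31 and Dpysl2 -0.36 to 0.30 (SNI 3d), Gap43 -2.67 to 1.45, Stmn2 -0.44 to 0.33, Basp1 -0.92 to 1.34, Dpysl2 -0.54 to 0.20 and Marcks -0.47 to 0.75 (SCI 1d), Gap43 -0.47 to 1.26, Stmn3 -0.31 to 0.15, Basp1 -0.75 to 0.86, Dpysl2 -0.086 to 0.56, Dpysl3 -0.10 to 0.20 and Crmp1 -0.38 to 0.15 (SCI 3d), Stmn1 -0.93 to 0.71, Basp1 -0.038 to 1.17, Dpysl2 -0.26 to 0.27 and Dpysl3 -0.43 to 0.035 (SNI 1d against SCI 1d), Stmn1 -0.40 to 0.61, Stmn3 -0.0041 to 0.44 and Basp1 -0.37 to 0.87 (SNI 3d against SCI 3d), Stmn1 -0.56 to 0.67, Stmn4 -0.16 to 0.54, Dpysl2 -0.087 to 0.33 and Marcks -0.098 to 0.47 (SNI 3d against SNI 1d) and Gap43 -1.16 to 1.10, Stmn1 -0.86 to 0.40, Stmn2 -0.071 to 0.73, Basp1 -1.24 to 0.036 and Dpysl3 -0.37 to 0.086 (SCI 3d against SCI 1d). With standard errors of 1.2 or more for Gap43, differences of the size seen for Stmn4 were not detectable for it in sorted neurons.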
